A study of Mus musculus with 69 samples.

Results

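The nuclear genes of the oxidative phosphorylation machinery were followed in vascular smooth muscle cells and endothelial cells under metabolic and hormonal stress. They were the rows of the count tables whose protein-coding symbol starts with Nduf, Uqcr, Atp5, Cox4, Cox5, Cox6, Cox7 or Cox8, or is Sdha, Sdhb, Sdhc, Sdhd, Cyc1 or Cycs. The symbols were found on 100 of the 56953 rows, and 93 of them reached a mean of at least 3 FPM (fragments per 1000000 counted, after TMM scaling over all libraries) in one cell type. The other 7 were the muscle isoforms Cox6a2, Cox7a1 and Cox8b, with a highest mean of 0.798 FPM, and Cox7b2, Cox8c, Ndufb11b and a duplicate entry of Atp5po, which were at or near 0.

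Oxidative phosphorylation is carried out in the inner mitochondrial membrane. Complexes I and II pass electrons from NADH and succinate to ubiquinone, complex III passes them on to cytochrome c, and complex IV passes them to oxygen. Complex V, the ATP synthase, uses the proton gradient that complexes I, III and IV build up. Most subunits are encoded in the nucleus, and a few core subunits of complexes I, III, IV and V are encoded in mitochondrial DNA. Vascular cells draw much of their ATP from glycolysis, and fatty acid oxidation feeds electrons into the same chain.

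Of the 93 genes, 7 encode core subunits of complex I, 30 accessory subunits of complex I, 8 complex I assembly factors, 4 complex II, 9 complex III, 1 cytochrome c (Cycs), 16 complex IV with its isoforms and relatives, and 18 complex V with its inhibitor Atp5if1. The 13 subunits encoded in mitochondrial DNA could not be described, because all 37 rows of the mitochondrial chromosome held 0 counts in every library.

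RNA-Seq was performed on 69 libraries of primary cells from male C57BL/6 mice. WT VSMC, from the aorta of animals with intact Egfr, were represented by 16 libraries of 4 sets (sets 1 to 4). KO VSMC, from animals in which Cre under the smooth muscle promoter SM22 deletes floxed Egfr, were represented by 15 libraries of 4 sets (sets 5 to 8). EC, all labelled as WT genotype, were heart cells selected on beads as CD45- and CD31+. They were represented by 38 libraries of 10 sets (sets 9 to 18). Each set came from 1 animal, with sets 17 and 18 from the same animal, and was split over the conditions. Cells had been passaged in culture and all kept without serum, and every solution contained albumin. For 24 h they received no stressor (Control), 20 mM glucose with free fatty acids (HG + FFA), 30 nM angiotensin II with a catecholamine at 300 nM (AII + NA) or ALL stressors. The labels call the catecholamine epinephrine and give 100 µM free fatty acids, whereas the study's methods name norepinephrine, and oleate and palmitate at that concentration each. Not analysed here were ALL in KO VSMC set 5, Control in EC set 10, and AII + NA in EC set 15.

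Some libraries went against their labels or stood apart from others with the same label. Egfr lay at 249 to 433 FPM in WT VSMC and at 0.949 to 1.80 FPM in KO VSMC sets 6 to 8, but at 36.3 FPM in KO VSMC set 5. Myh11, a smooth muscle myosin, was at 237 FPM in set 5, at 2.69 to 7.56 FPM in sets 6 to 8 and at 3.96 to 10.9 FPM in WT VSMC. EC sets 9, 11 and 13 held 17.9 to 41.4 FPM of the endothelial marker Pecam1, against 262 to 1603 FPM in the other 7 EC sets and up to 13.1 FPM in VSMC. They also held 740.5 to 3116 FPM of smooth muscle actin Acta2, against 168 to 589.9 FPM in the other EC sets. Egfr was at 134 to 151 FPM in them and at 2.65 to 43.7 FPM in the other EC sets. Myh11 was not higher in them, with 0.463 to 6.32 FPM against 0.600 to 9.05 FPM. EC sets 15 and 16 came from the animals of KO VSMC sets 7 and 6, and their labels give the WT genotype. Cre is under a smooth muscle promoter in these animals, so this label does not contradict the design. The cardiomyocyte myosin Myh6 was at 0 in every EC set and at no more than 0.0277 FPM in VSMC, and the leukocyte marker Ptprc reached at most 1.08 FPM. Other genes of these lists were present. The 12 cardiomyocyte markers summed to 7.86 to 83.1 FPM in WT VSMC sets, 28.3 to 156 in KO VSMC and 6.40 to 286 in EC. The 8 leukocyte markers summed to 16.7 to 54.8, 25.9 to 40.1 and 7.55 to 35.8 FPM. In bulk libraries, fewer cells of a type and less RNA per cell cannot be told apart. Where KO VSMC set 5 or EC sets 9, 11 and 13 enter, counts of these genes that passed the main test are given with and without them. Other counts, such as those of intervals, signs and groups without overlap, are mostly given with all sets only.

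The 93 genes together made up 0.823% ± 0.102 of the library in WT VSMC (SD, n = 4 sets), 1.003% ± 0.156 in KO VSMC (n = 4 sets) and 0.646% ± 0.0840 in EC (n = 10 sets). Complex V held the largest part, with 0.272% of the library in WT VSMC, 0.335% for KO VSMC and 0.232% for EC. Complex IV followed with 0.192%, 0.233% and 0.128%, and the accessory subunits of complex I with 0.163%, 0.206% and 0.114%. The core subunits of complex I held 0.0607%, 0.0682% and 0.0519%, and complex II held 0.0483%, 0.0547% and 0.0486%. The median relative SD over the Control libraries was 18.4% for these genes in WT VSMC, 33.1% for KO VSMC and 31.6% for EC, against 16.6%, 23.3% and 30.4% for all protein-coding genes with at least 3 FPM. Ndufa4l2 had the largest relative SD of the 93 genes in both VSMC types and Cox6b2 in EC.

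**Figure D1:**
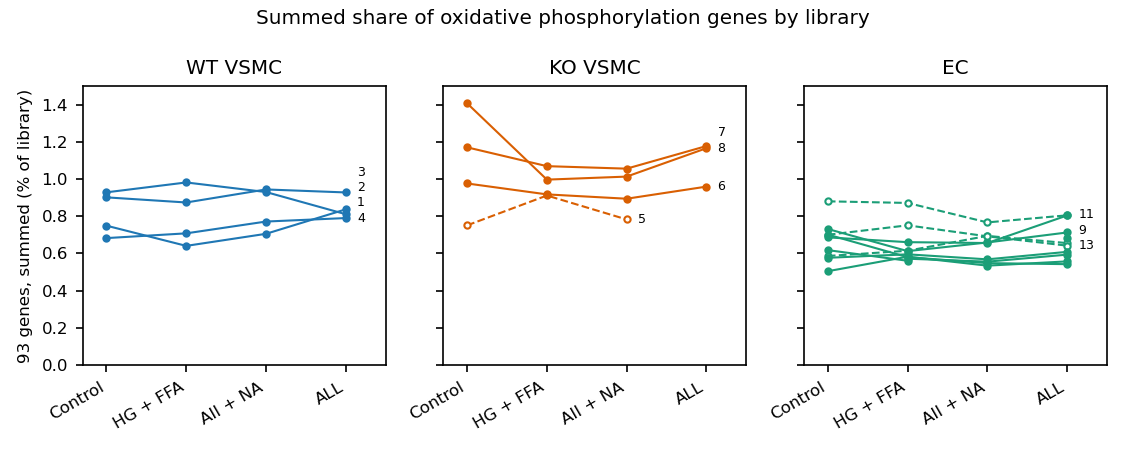
Summed share of the 93 oxidative phosphorylation genes in each library, in percent of the library after TMM scaling, by condition (x axis) for WT VSMC, KO VSMC and EC. Lines join the libraries of 1 set, the numbers name sets, and open points with broken lines are KO VSMC set 5 and EC sets 9, 11 and 13. The Control library of KO VSMC set 8 is the highest at 1.41%, and the EC libraries lie between 0.504% and 0.880%.

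Levels per kilobase of the union of exons differed widely within a complex. In complex IV, Cox6a1, a structural subunit, was the highest with 314 FPM per kb in WT VSMC, 394 for KO VSMC and 164 for EC, and Cox4i2 was the lowest with 1.06, 3.11 and 0.676. In complex V, Atp5f1b, the catalytic beta subunit, was the highest with 147, 166 and 133 FPM per kb, and Atp5mk was the lowest with 7.31, 10.4 and 4.53. Among core subunits of complex I, Ndufs1 was the lowest in WT VSMC with 4.54 FPM per kb. Among complex I accessory subunits Ndufa2 was the highest and Ndufb2 the lowest, and among assembly factors Ndufaf8 and Ndufaf6. Exons of other genes overlap 44.9% of the exon length of Atp5mk and 37.6% of that of Ndufaf8. In complex III, Uqcrh was the highest in all cell types. In complex II, Sdhb, the iron-sulfur subunit, was the lowest in all cell types, and Sdhc, a membrane anchor, was the highest in both VSMC types. Some of these ranks depended on the length used. Per kilobase of the longest coding transcript, Sdha, the flavoprotein subunit, was the highest of complex II, with 67.0 FPM per kb in WT VSMC, 74.2 in KO VSMC and 73.6 for EC. On that scale the highest accessory subunit was Ndufa7 in both VSMC types and Ndufa6 in EC, and the highest assembly factor in EC was Ndufaf3.

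Levels of complex IV isoforms are given in FPM, which compares a gene across cell types but not genes with each other. Cox4i1, the ubiquitous form of subunit 4, was at 349.7 ± 21.3 FPM in WT VSMC (SD over sets), 462 ± 123 in KO VSMC and 275.9 ± 108.998 in EC. Cox4i2, the form known from lung and from low oxygen, was at 1.43 ± 0.74 FPM in WT VSMC, 4.17 ± 1.05 for KO VSMC and 0.907 ± 0.969 for EC. Cox6b1 was at 125 ± 20.2, 153 ± 32.5 and 75.1 ± 11.2 FPM. Its relative Cox6b2, best known as the form of the testis, was at 42.5 ± 16.3, 27.0 ± 9.66 and 11.5 ± 9.52 FPM. Ndufa4, a subunit first assigned to complex I and now to complex IV, was at 76.1 ± 10.3, 93.6 ± 27.1 and 61.7 ± 15.003 FPM. Cox6a1, the ubiquitous form of subunit 6a, was at 224 ± 51.3 FPM in WT VSMC.

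Ndufa4l2, a paralog of Ndufa4 that is known to be induced by low oxygen, had the largest difference of the 93 genes between unstressed EC and WT VSMC. It lay at 127 ± 54.3 FPM in WT VSMC, 45.4 ± 66.3 FPM in KO VSMC and 2.88 ± 2.94 FPM in EC (SD over sets). In unstressed WT VSMC sets 1 to 4 its level was 163, 59.1, 177 and 155 FPM, and in unstressed KO VSMC sets 5 to 8 it was 151, 3.04, 35.8 and 9.93 FPM. KO VSMC set 5, the set that retained Egfr mRNA, was within the range of WT VSMC, and the other 3 sets were below it. In the 9 unstressed EC libraries the level was 0 at the lowest, 1.65 at the median and 7.16 FPM at the highest. Exons of other genes overlap 63.3% of the exon length of Ndufa4l2 (GRCm39, chromosome 10, 127350818 to 127353038), and as the strand setting of the count is not stated, reads of these genes cannot be told apart from its own there.

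The question put to the stressors was whether glucose with fatty acids, hormones or both change the expression of the respiratory machinery, as the study also examined mitochondrial respiration. As an average effect, HG + FFA left most of these genes within a narrow range in all cell types, while genes of a fatty acid handling list rose. For the average effect of HG + FFA (over libraries with and without AII + NA), edgeR's quasi-likelihood test called 1 of 93 genes in WT VSMC at an FDR under 0.05, Ndufa4l2, which fell. It called 2 in EC, Cycs and Cox5a, which both rose, and 0 in KO VSMC, where 3 had an unadjusted p under 0.05 (13.9% of all genes did). The same threshold called 6.77% of all genes tested in WT VSMC, 8.6% in EC and 2.18% in KO VSMC. The median log2FC of the 93 genes was -0.03 in WT VSMC, 0.01 for KO VSMC and -0.005 for EC. The 95% interval of the log2FC lay within ±0.64, the threshold the study uses for DEG, for 93 genes in WT VSMC, 92 for KO VSMC and 91 for EC. The median distance from the estimate to either end of that interval was 0.15, 0.22 and 0.14. The average joins HG + FFA against Control with ALL against AII + NA, and in KO VSMC the first of these was not near the average. HG + FFA alone gave a median of -0.17 there, with 86 of 93 genes lower, and the interval lay within ±0.64 for 80 genes.

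By complex, the median average effect of HG + FFA lay between -0.05 and 0.05 in WT VSMC and, leaving out Cycs, which is alone in its group, between -0.04 and 0.03 in EC. Of 18 complex V genes none passed the test in any cell type, with log2FC from -0.08 to 0.05 in WT VSMC, from -0.13 to 0.14 in KO VSMC and from -0.13 to 0.11 in EC. The same holds for the 4 genes of complex II, which extended from -0.06 to 0.04 in WT VSMC and from -0.08 to 0.04 in EC. DESeq2 called 3 members in WT VSMC, all lower, and 0 in KO VSMC for the same effect.

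Of 23 tested genes of fatty acid response and oxidation, 13 rose in WT VSMC, 11 for KO VSMC and 15 for EC, and none fell. Of all genes tested, 6.77%, 2.18% and 8.6% were called in either direction. The list was chosen with earlier results of these data known, so its rise is a description and not a test. The median log2FC of its 23 genes was 0.23, 0.42 and 0.28. Pdk4, the kinase that shuts off pyruvate dehydrogenase, rose by 1.52 ± 0.17 (SE) in WT VSMC, 1.66 ± 0.15 for KO VSMC and 1.16 ± 0.09 for EC. Ech1, an enzyme for unsaturated fatty acids in beta-oxidation, rose by 0.76 ± 0.09, 0.99 ± 0.09 and 0.996 ± 0.049. Of 17 genes of the tricarboxylic acid cycle only citrate synthase Cs rose in WT VSMC (0.17 ± 0.04, FDR = 0.0314), and none was called in KO VSMC or EC. Of the regulators of mitochondrial biogenesis, 1 of 15 fell in WT VSMC (Tfb1m, -0.41 ± 0.10), and none of 14 was called in KO VSMC or EC. Of 31 assembly factors of complexes II to V, Surf1 fell in EC (-0.22 ± 0.05, FDR = 0.00510) and none was called in VSMC. Among 7 uncoupling and nucleotide carrier genes, Ucp2 (1.58 ± 0.28 in KO VSMC, 1.87 ± 0.24 in EC) and the ADP/ATP carrier Slc25a5 (0.50 ± 0.08 and 0.37 ± 0.06) rose in both, and none was called in WT VSMC.

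**Figure D2:**
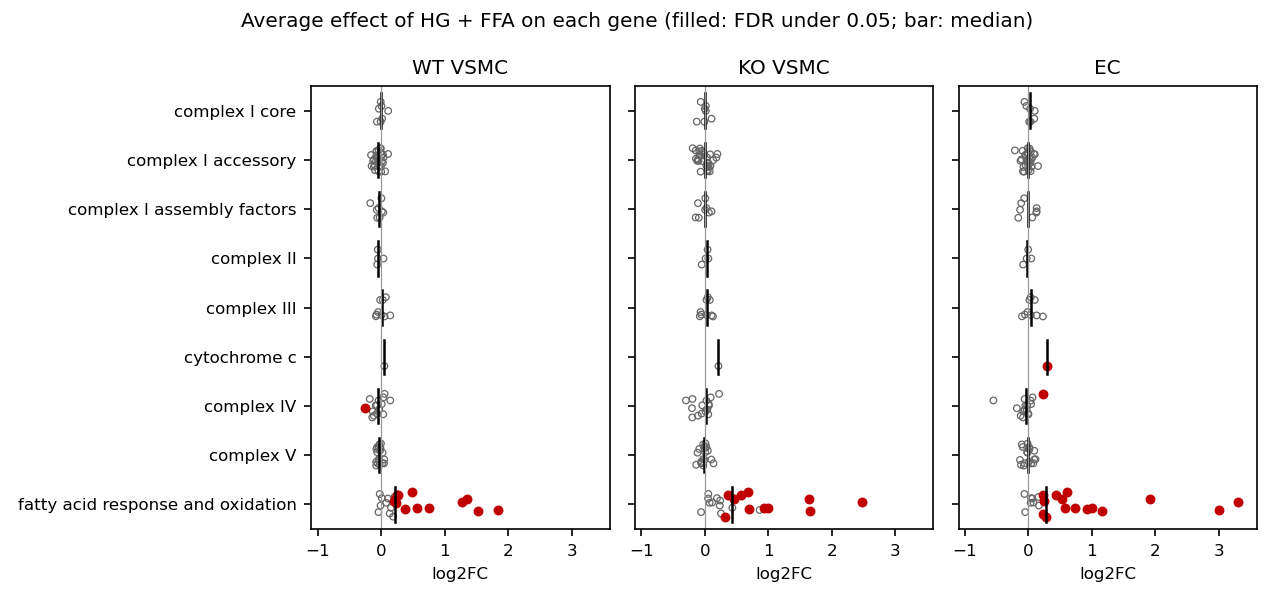
Average effect of HG + FFA on each gene, as log2FC from edgeR (x axis), for the groups of oxidative phosphorylation genes and for the fatty acid response and oxidation list (y axis) in WT VSMC, KO VSMC and EC. Each circle is a gene, filled circles have an FDR under 0.05, and bars are medians. In WT VSMC all respiratory genes lie between -0.25 and 0.15, whereas Pdk4 is at 1.52.

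Cycs encodes cytochrome c, the soluble electron carrier between complexes III and IV, which also triggers apoptosis when it leaves the mitochondria. In EC its level was 21.9 at the lowest, 41.5 at the median and 67.5 FPM at the highest under Control (n = 9), and 25.2, 51.2 and 71.3 FPM under HG + FFA (n = 10). Under AII + NA it was 18.9, 46.1 and 75.2 FPM (n = 9), and under ALL 26.0, 52.3 and 65.8 FPM (n = 10). The conditions overlapped widely, and the difference appeared within sets. The log2 average effect of HG + FFA was above 0 in 6 of the 8 complete sets (0.33, 0.61, 0.37, 0.43, 0.35 and 0.58 in sets 9, 12, 13, 14, 17 and 18) and below 0 in sets 11 (-0.06) and 16 (-0.19). The fitted log2FC was 0.29 ± 0.06 (SE, FDR = 0.00245), and without EC sets 9, 11 and 13 it was 0.33 ± 0.08 (FDR = 0.00936), the only member called of 93, where 7.17% of all genes were called. With the animal in place of the set as the block, it was 0.28 and its FDR 0.0519.

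Cox5a, a subunit of complex IV on the matrix side of the membrane, rose by 0.23 ± 0.07 in EC (FDR = 0.0299) and was higher in 7 of 8 complete sets. Its level in EC was 14.8, 25.3 and 35.3 FPM (lowest, median and highest) under Control and 20.7, 23.2 and 42.6 FPM under HG + FFA. Without EC sets 9, 11 and 13 its log2FC was 0.15 ± 0.08 (FDR = 0.336). With the animal as the block its FDR was 0.0544. In KO VSMC the values for Cycs and Cox5a were 0.22 ± 0.09 (FDR = 0.291) and 0.23 ± 0.08 (FDR = 0.200), and in WT VSMC 0.05 ± 0.07 (FDR = 0.713) and 0.06 ± 0.07 (FDR = 0.708). Whether EC and VSMC differed in these responses was not tested. Exons of other genes overlap 41.4% of the exon length of Cox5a.

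Markers of other cells moved in EC with the same effect. Of 8 fibroblast markers 5 fell, among them Col1a2 (-0.56 ± 0.11) and Col3a1 (-0.43 ± 0.08), and the summed level of the list extended from 2360 to 29800 FPM under Control and from 1140 to 29600 FPM under HG + FFA. Of 12 EC markers 2 rose and 2 fell. None of 9 tested VSMC markers and 5 tested cardiomyocyte markers was called. The part of these markers in the values for Cycs and Cox5a was not tested.

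The stretches before the start of Cycs, Cox5a and Cox6b2 are shown because these genes were called under a stressor and have an entry in the RefSeq promoter table (GRCm38.p6), which covers 74 of the 93 genes. Each line has the 250 bases before the start, 5′ to 3′ on the strand of the gene, and capitals mark the motifs TGACGTC and its reverse complement GACGTCA (from the cyclic AMP response element, overlapping where they form a palindrome) and ACGTG or CACGT (the core of hypoxia response elements).
Cycs, chr6:50566570-50566819, minus strand: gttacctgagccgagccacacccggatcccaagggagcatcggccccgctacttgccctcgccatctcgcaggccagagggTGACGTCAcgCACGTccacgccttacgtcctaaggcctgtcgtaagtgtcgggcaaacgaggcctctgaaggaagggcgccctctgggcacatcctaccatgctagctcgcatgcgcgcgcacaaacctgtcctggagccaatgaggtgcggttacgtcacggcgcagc
Cox5a, chr9:57520982-57521231, plus strand: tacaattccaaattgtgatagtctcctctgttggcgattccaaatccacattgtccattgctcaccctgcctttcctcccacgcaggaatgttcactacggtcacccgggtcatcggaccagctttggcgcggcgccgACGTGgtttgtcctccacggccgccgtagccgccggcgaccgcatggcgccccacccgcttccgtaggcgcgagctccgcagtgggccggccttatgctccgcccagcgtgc
Cox6b2, chr7:4753095-4753344, minus strand: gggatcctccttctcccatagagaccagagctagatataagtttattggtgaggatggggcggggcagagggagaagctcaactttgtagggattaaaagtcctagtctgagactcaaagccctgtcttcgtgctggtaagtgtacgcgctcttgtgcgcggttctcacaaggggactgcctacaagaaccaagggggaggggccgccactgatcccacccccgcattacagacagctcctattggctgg
The Cycs stretch held that palindrome and a CACGT close by, the Cox5a stretch held 1 ACGTG, and the Cox6b2 stretch held none of the motifs searched. Over the whole 300 bases of the table, TGACGTC on either strand was found for 9.46% of the 74 genes and 4.35% of the 17491 protein-coding genes in the table. The consensus of nuclear respiratory factor 1 was found for 25.7% and 7.17%, the ETS core CCGGAAG for 24.3% and 12.9%, and the YY1 core AAGATGGC for 14.9% and 3.57%. ACGTG was found for 24.3% and 23.2%. These matches describe letters only and do not show that a factor binds.

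Under ALL stressors, 2 of 93 genes passed the test in WT VSMC, where 7.45% of all genes were called. Cyc1, the heme-bearing cytochrome c1 of complex III that hands electrons to cytochrome c, rose, and Cox6b2 fell. Cyc1 was at 86.6, 73.8, 90.3 and 71.0 FPM in sets 1 to 4 under Control and at 102, 93.3, 114 and 96.5 FPM under ALL. All 4 sets increased and the groups did not overlap. The log2FC was 0.34 ± 0.08 (FDR = 0.0179), with values of 0.23, 0.34, 0.33 and 0.44 in the single sets. HG + FFA alone gave 0.10 ± 0.08 (FDR = 0.696) and AII + NA alone 0.15 ± 0.08 (FDR = 0.600).

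Cox6b2 was at 61.0, 55.9, 46.6 and 20.9 FPM in WT VSMC sets 1 to 4 under Control and at 46.4, 49.3, 36.9 and 16.3 FPM under ALL. It decreased in each set, although the sets differed from each other by more than the conditions did. The log2FC was -0.31 ± 0.07 (FDR = 0.0177). In KO VSMC, Cox6b2 was also lower under ALL in the 3 sets measured, but the log2FC of -0.41 ± 0.19 did not pass the test (FDR = 0.456). Leaving out WT VSMC set 3 or 4 ended the call of Cyc1 (FDR = 0.0869 and 0.131), and leaving out set 1, 3 or 4 ended that of Cox6b2 (FDR = 0.0743 to 0.115). At the same time 2 of 10 VSMC markers rose (Mylk 1.11 ± 0.18, Tagln 0.95 ± 0.26) and 2 of 8 fibroblast markers fell, and their part in these values was not tested.

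Ndufa4l2 was the gene that fell under HG + FFA in WT VSMC. Its level in sets 1 to 4 was 162, 39.6, 152 and 128 FPM under HG + FFA and 131, 47.0, 151 and 119 FPM under ALL, against 163, 59.1, 177 and 155 FPM under Control and 150, 44.9, 197 and 160 FPM under AII + NA. The libraries with HG + FFA lay below their partners without it on average in each set, with log2 values of -0.10, -0.25, -0.30 and -0.36. The fitted average effect was -0.25 ± 0.07 (FDR = 0.0372). HG + FFA alone gave -0.26 ± 0.10 (FDR = 0.299) and ALL gave -0.32 ± 0.10 (FDR = 0.0593). Leaving out set 3 or 4 raised the FDR of the average effect to 0.182 in both cases. Of 15 tested genes of the hypoxia response and glycolysis list, 2 rose under HG + FFA in WT VSMC, Pfkfb3 (0.76 ± 0.14) and Vegfa (0.23 ± 0.07), and none fell.

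In EC under ALL stressors no member passed edgeR's test (3.18% of all genes did), 4 had an unadjusted p under 0.05 (16.2% of all genes did), and DESeq2 called Cycs. The edgeR value of Cycs was 0.30 ± 0.09 (FDR = 0.0530), with 7 of 9 sets higher. Under ALL none was called without EC sets 9, 11 and 13 (1.91%) and 4 had such a p (14.1%). In KO VSMC no member was called under ALL (0.399% of all genes), and 2 had an unadjusted p under 0.05 (10.5%). Without set 5 none was called either (1.04%), and 17 were lower with such a p (9.4%), with a median log2FC of -0.13. HG + FFA alone called no member in WT VSMC (0.538%), KO VSMC (0.439%) or EC (3.53%). In EC the smallest p belonged to Ndufb11 (-0.24 ± 0.08, FDR = 0.106), Cycs (0.26 ± 0.09, FDR = 0.108) and Cox8a (-0.26 ± 0.09, FDR = 0.120). Exons of other genes overlap 67.8% of the exon length of Ndufb11. At an unadjusted p under 0.05 there were 4 members in WT VSMC (11.2% of all genes), 13 in KO VSMC, all lower (6.07% were lower), and 8 in EC (16.9%). DESeq2 called none in these comparisons. In EC, HG + FFA alone called none without EC sets 9, 11 and 13 (2.58%), and 9 had such a p (14.7%).

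**Figure D3:**
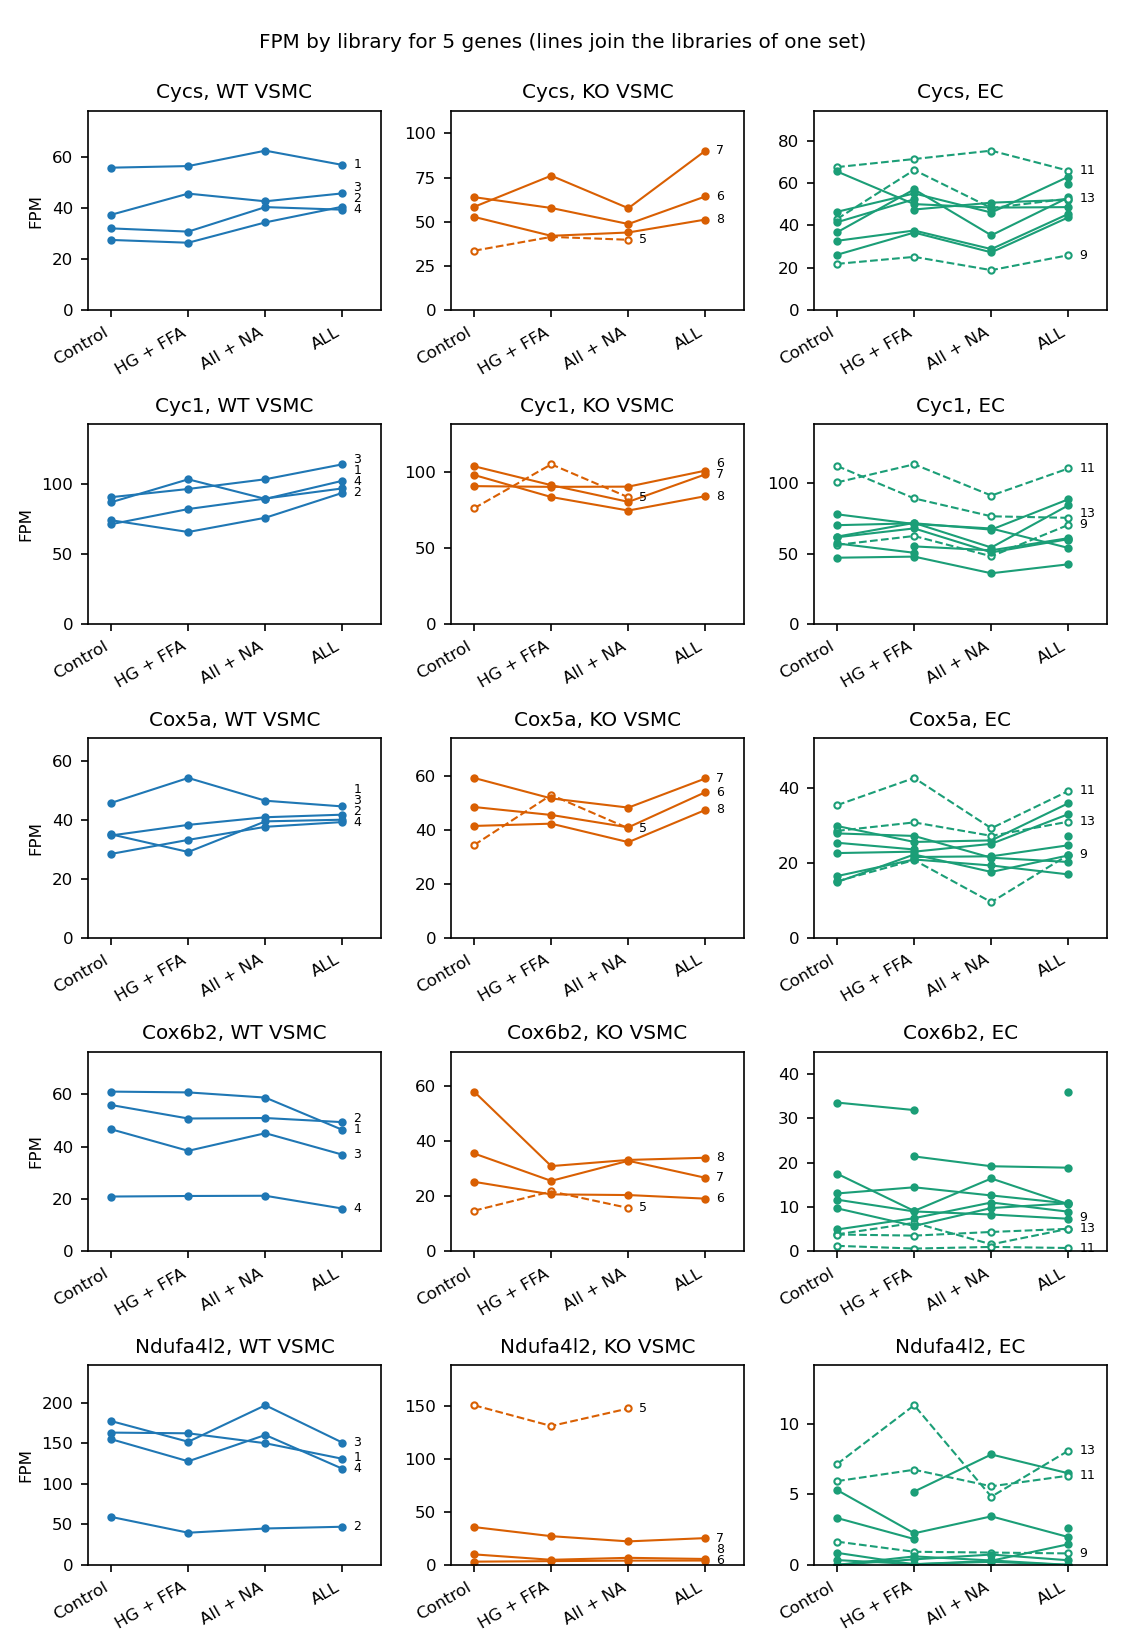
FPM (y axis) of Cycs, Cyc1, Cox5a, Cox6b2 and Ndufa4l2 by condition (x axis) in WT VSMC, KO VSMC and EC, with lines joining the libraries of 1 set and each panel on its own scale. Set numbers are given for VSMC and for EC sets 9, 11 and 13, which are drawn open and broken like KO VSMC set 5. Cyc1 in WT VSMC lies between 93.3 and 114 FPM under ALL and at or below 90.3 FPM under Control, and Ndufa4l2 in KO VSMC is above 131 FPM only in set 5.

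AII + NA alone called no member in any cell type (0.0532% of all genes in WT VSMC, 0.0% for KO VSMC and 0.0% for EC). The median log2FC of the 93 genes was 0.06 for WT VSMC, -0.22 for KO VSMC and -0.07 for EC. An unadjusted p under 0.05 was found for 1 gene in WT VSMC (9.42% of all genes), for 24 genes in KO VSMC, all lower (5.83% were lower), and for 11 genes in EC, all lower (3.92%). Without EC sets 9, 11 and 13, no member was called in EC (0.0%) and 4 were lower with such a p (1.49%). DESeq2 called none. The fitted estimates were mostly above 0 in WT VSMC (73 genes) and mostly below 0 in KO VSMC (90 genes). The sets did not all share these directions. Under AII + NA alone the median log2 ratio of the 93 genes in WT VSMC sets 1 to 4 was -0.02, -0.08, 0.11 and 0.23. In KO VSMC this median was 0.07 in set 5 and below 0 in the other sets. Averaged over libraries with and without HG + FFA, AII + NA gave a median of 0.08 in WT VSMC, where 86 genes were higher and none was called (3.41% of all genes were), with 18 at an unadjusted p under 0.05 (17.8%). The same average called none in KO VSMC (0.0% of all genes) or EC (0.0%), with 0 members (3.86%) and 5 members (3.41%) at an unadjusted p under 0.05. Without KO VSMC set 5 the average called none in KO VSMC (0.0%), with 2 members lower at such a p (3.26%), and without EC sets 9, 11 and 13 none in EC (0.0%), with 1 member higher at such a p (0.876%). In WT VSMC, Cycs had the smallest p, with 0.25 ± 0.07 (FDR = 0.0586), and was higher in all 4 sets, at 62.6, 34.5, 42.8 and 40.5 FPM under AII + NA against 55.96, 27.6, 37.5 and 32.1 FPM under Control. DESeq2 called 2 members in WT VSMC, both higher. In the averaged effect WT VSMC set 1 went the other way, with 3 of 93 genes higher and a median of -0.16, against 83 to 87 genes higher in sets 2 to 4. Without set 1, 21 members rose, among them Uqcrq (0.38), Ndufb7 (0.35), Cox6a1 (0.31) and Cycs (0.30), where 4.05% of all genes rose. VSMC markers moved with AII + NA in WT VSMC, where 5 of 10 rose in the averaged effect (Acta2, Cnn1, Mylk, Tagln and Lmod1) and none fell. The summed level of the list was 388 to 1220 FPM under Control and 874 to 2160 FPM under AII + NA, and its part in the values of the respiratory genes was not tested.

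In EC, Cyc1 had the smallest p under AII + NA alone, with -0.24 ± 0.08 (unadjusted p = 0.00346, FDR = 0.719), and was lower in all 8 sets. Its level was 47.1, 62.04 and 112 FPM (lowest, median and highest) under Control and 36.0, 54.3 and 91.2 FPM under AII + NA. In WT VSMC the same gene was higher in all 4 sets under AII + NA, with values of 0.04, 0.03, 0.19 and 0.33 in the single sets. Neither passed the test, and the difference between the cell types was not tested.

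In KO VSMC the lower values under AII + NA and HG + FFA came from 3 of 4 sets. Under HG + FFA the median log2 ratio of the 93 genes was 0.31 in set 5, with 88 genes higher, and -0.13, -0.20 and -0.69 in sets 6, 7 and 8. Under AII + NA it was 0.07 in set 5 and -0.11, -0.21 and -0.67 in sets 6, 7 and 8. The comparisons share the Control libraries, in which the summed share of these genes was 0.7505%, 0.976%, 1.17% and 1.41% in sets 5 to 8. The Control library of set 8 was the highest of all 69 libraries, and set 5, with its retained Egfr, was the lowest of KO VSMC.

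Without set 5, 25 of 93 genes fell under HG + FFA in KO VSMC, where 4.42% of all genes fell, and none rose. They included Ndufa11, an accessory subunit of complex I (-0.75 ± 0.15, FDR = 0.0154), the complex I core subunit Ndufs7 (-0.61 ± 0.14, FDR = 0.0220), Atp5po, the stalk subunit of complex V that confers oligomycin sensitivity (-0.57 ± 0.13, FDR = 0.0218), and Cox7a2l, a factor of respiratory supercomplexes (-0.56 ± 0.13, FDR = 0.0270). Atp5po was at 73.2, 97.5 and 138 FPM in sets 6 to 8 under Control and at 64.3, 66.3 and 71.8 FPM under HG + FFA. In set 5 it was at 55.9 FPM under Control and 66.3 FPM under HG + FFA. Exons of other genes overlap 49.4% of the exon length of Ndufs7. Without set 8 instead, no member was called (0.215% of all genes were), 0 had an unadjusted p under 0.05 (6.64%), and the median was -0.02. Under AII + NA no member was called with either set left out (0.0% of all genes in both cases). An unadjusted p under 0.05 was found for 57 members, all lower, without set 5 (12.1% of all genes were lower) and for 0 without set 8 (2.6%). Averaged over AII + NA, HG + FFA called no member in KO VSMC also without set 5 (3.29% of all genes), and 17 had an unadjusted p under 0.05 (18.8%).

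Transcript length moved with these values. Among other protein-coding genes the median log2FC under AII + NA in KO VSMC was -0.26 for coding transcripts under 1000 bases (204 genes) and 0.13 for those over 5000 bases (4173 genes). The oxidative phosphorylation genes had medians of -0.23 (23 genes) and -0.25 (6 genes) in these bins. In the bins between, the medians of these genes were -0.30, -0.16 and -0.18 and those of the others -0.18, -0.09 and 0.01. The part of transcript length in the values was not tested.

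Departure from additivity, the log2 effect of ALL beyond the sum of both single effects, called no gene of any kind in the 3 cell types (0.0%). The median of the 93 genes was 0.07 for WT VSMC, 0.34 for KO VSMC and 0.10 for EC. In KO VSMC all 93 estimates were above 0 and 13 had an unadjusted p under 0.05 (2.9% of all genes were above 0 with such a p), with medians over the 93 genes of 0.21, 0.38 and 0.97 in sets 6, 7 and 8. Without set 5, 73 were above 0 with such a p (11.4% of all genes) and none was called (0.0%), with a median of 0.52. The Control libraries enter this value with the opposite sign to that in the single stressor comparisons. Transcript length moved with it in KO VSMC and EC. Other protein-coding genes had medians of 0.35 and 0.14 for coding transcripts under 1000 bases and -0.18 and -0.10 for those over 5000 bases. The respiratory genes had 0.34 and 0.17 in the short bin and 0.39 and 0.03 in the long bin. The part of length was not tested. In EC 14 genes were above 0 with an unadjusted p under 0.05 (3.83% of all genes), led by Uqcrfs1, the Rieske protein of complex III (0.29 ± 0.11, FDR = 0.540). Without EC sets 9, 11 and 13 none was called (0.0%), and 15 were above 0 with such a p (3.11%). In WT VSMC 1 gene had such a p (1.72% of all genes), the Cox5b relative Cox5b-ps (0.43 ± 0.20, FDR = 1), whose reads cannot be told apart from those of Cox5b with certainty.

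The stressor effects in WT VSMC minus those in KO VSMC called no member for HG + FFA (0.0% of all genes), AII + NA (0.0%) or ALL (0.0109%). For AII + NA the median difference was 0.30, 89 of 93 genes were above 0, and 26 of these had an unadjusted p under 0.05 (6.93% of all genes). The smallest p belonged to Uqcrc1, a core protein of complex III (0.48 ± 0.15, FDR = 0.395), Atp5f1d, the delta subunit of the ATP synthase (0.55 ± 0.19, FDR = 0.395), and Ndufa11 (0.70 ± 0.24, FDR = 0.395). Without KO VSMC set 5 the median was 0.39 and 58 genes were above 0 with such a p (12% of all genes), and without set 8 it was 0.14 with 1 such gene (3.12%). For HG + FFA and ALL the medians were 0.12 and 0.12, with 0 genes (3.08% of all genes) and 4 genes, all above 0 (4.2%), at an unadjusted p under 0.05. Without KO VSMC set 5 the medians were 0.29 and 0.22, and 26 genes (5.82% of all genes) and 12 genes (6.98%) were above 0 with such a p, with none called for HG + FFA (0.0%) or ALL (0.0385%). DESeq2 called none for any of the comparisons with all sets. For AII + NA the 95% interval lay within ±0.64 for 38 of 93 genes. Transcript length moved with the difference for AII + NA. Other protein-coding genes had medians of 0.31 for coding transcripts under 1000 bases and -0.16 for those over 5000 bases. The respiratory genes had 0.26 and 0.32 in these bins, and the part of length was not tested.

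Between unstressed KO VSMC and WT VSMC no gene passed an FDR under 0.05 in edgeR (0.0%), and no member did in DESeq2. The deleted gene Egfr was not called either, although its sets lay at 249 to 433 FPM in WT VSMC and 0.949 to 36.3 FPM in KO VSMC. The absence of calls therefore does not show equal levels. The estimates of 89 of 93 genes were nevertheless higher in KO VSMC, with a median of 0.45, against -0.002 for all genes tested, and 9 of these had an unadjusted p under 0.05 (3.41% of all genes). The smallest p belonged to Cox5b, a zinc-binding subunit of complex IV (0.78 ± 0.27, FDR = 0.814), Uqcr11 (0.998 ± 0.372, FDR = 0.814) and Ndufb2 (0.85 ± 0.34, FDR = 0.814). Complex II had the lowest median by complex (0.19) and complex V the highest (0.55). In 3 genes the KO VSMC libraries lay above WT VSMC without overlap, as 2.48% of all genes did. Without set 5 the median was 0.62 and 36 genes were higher with an unadjusted p under 0.05 (6.24% of all genes), and without set 8 it was 0.26 with 1 such gene (3.06%). Other short transcripts also shifted, with a median of 0.42 for coding transcripts under 1000 bases and -0.15 for those over 5000 bases, where the respiratory genes had 0.54 and 0.51. Marker lists differed in the same comparison, although none of their genes was called. All 8 fibroblast markers were estimated lower in KO VSMC, with a summed level of 10200 to 33800 FPM in WT VSMC and 3530 to 18500 FPM in KO VSMC. Of 10 VSMC markers 9 were estimated higher, with sums of 388 to 1220 and 968 to 3290 FPM, and of 12 EC markers 10 were estimated lower, with sums of 226 to 361 and 120 to 288 FPM. The part of length and of these markers was not tested. The 95% interval lay within ±0.64 for 4 of 93 genes.

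Unstressed EC differed from WT VSMC in 14 of the 93 genes, with 13 lower (6.92% of all genes were) and 1 higher (8.12%). The median log2FC was -0.44, against 0.05 for all genes tested, and 83 genes were lower. The cell types also differ in organ and in the batch that the labels give, so cell type and batch cannot be told apart. Ndufa4l2 was lowest with -5.66 ± 1.05 (FDR = 0.00378), followed by Cox6b2 with -2.04 ± 0.58 (FDR = 0.0281). Ndufa11 gave -1.41 ± 0.34 (FDR = 0.0131) and lay at 19.1, 36.0 and 76.4 FPM (lowest, median and highest) in EC, against 128, 86.4, 148 and 59.9 FPM in WT VSMC sets 1 to 4. The complex III subunits Uqcrq (-1.04 ± 0.32) and Uqcrb (-0.79 ± 0.26) were lower too.

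The assembly factors Ndufaf8 (-1.06 ± 0.26, FDR = 0.0139) and Ndufaf6 (-0.70 ± 0.19, FDR = 0.0253), the complex I subunit Ndufs6 (-0.97 ± 0.29, FDR = 0.0337) and coupling factor Atp5pf (-0.70 ± 0.19, FDR = 0.0254) were lower without overlap of the groups. Atp5pf lay at 42.0 to 83.6 FPM in EC and at 101 to 120 FPM in WT VSMC. Exons of other genes overlap 37.6% of the exon length of Ndufaf8 and 29.55% of that of Atp5pf. In all, 6 of 93 genes were lower in EC without overlap, as 4.65% of all genes were, and 1, Ndufb2 (0.78, FDR = 0.0804), was higher without overlap, as 3.06% were. The other genes that were lower were Ndufb4, Ndufa5, Ndufv3 and Cox6a1. Ndufb8, an accessory subunit of complex I, was higher (0.71 ± 0.20, FDR = 0.0291), with 9.01 to 18.6 FPM in EC and 7.37 to 9.41 FPM in WT VSMC. Cycs (0.17 ± 0.28, FDR = 0.706) and Cyc1 (-0.14 ± 0.20, FDR = 0.664) gave no detectable difference.

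Without EC sets 9, 11 and 13, 36 genes were lower, where 13.7% of all genes were, and 2 were higher (14.8%), Ndufb8 and the complex I core subunit Ndufs1 (0.41 ± 0.12, FDR = 0.0175). The 36 included all 13 named above, and the median was -0.54. Among them were Cox8a (-1.06 ± 0.24), Atp5f1e (-1.08 ± 0.33) and Ndufa13 (-1.03 ± 0.24). Exons of other genes overlap 43.3% of the exon length of Ndufa13. With WT VSMC set 3 left out, 1 gene was called, Ndufa4l2, which was lower (3.81% of all genes were), and the median was -0.41. Transcript length moved with this comparison as well. The median of other protein-coding genes was -0.46 for coding transcripts under 1000 bases and 0.27 for those over 5000 bases, where the respiratory genes had -0.70 and -0.25. Its part was not tested.

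In 4 animals both VSMC and EC were cultured, and each animal can be compared with itself over the conditions they shared. In the animal of WT VSMC set 1 and EC set 9, 86 of 93 genes were lower in EC, with a median log2 difference of -0.89. In that of WT VSMC set 2 and EC set 10, 82 genes were lower, with a median of -0.53. In the animals of KO VSMC sets 6 and 7, 90 and 88 genes were lower in EC sets 16 and 15, with medians of -0.73 and -1.16. All protein-coding genes with at least 3 FPM had medians between -0.08 and -0.05 in these animals. EC set 9 is one of the sets with little Pecam1.

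**Figure D4:**
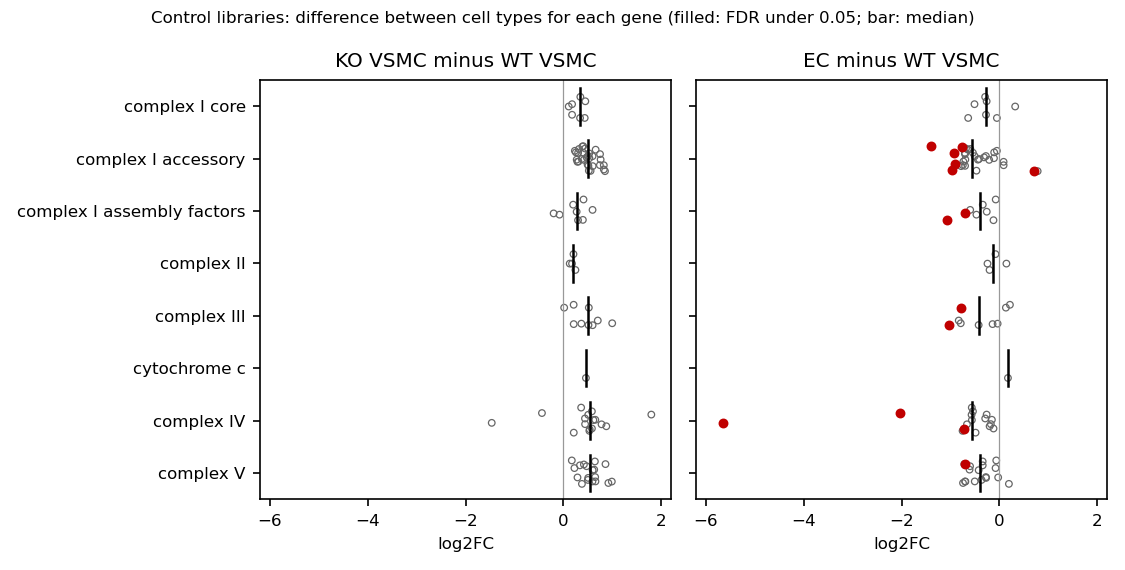
Differences between cell types in the Control libraries for each oxidative phosphorylation gene, as log2FC from edgeR (x axis), by group of genes (y axis), for KO VSMC minus WT VSMC and EC minus WT VSMC. Each circle is a gene, filled circles have an FDR under 0.05, and bars are medians. Most genes lie above 0 in KO VSMC with none filled, and 83 of 93 lie below 0 in EC, with Ndufa4l2 at -5.66.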

How the data were processed

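RNA of 69 libraries (18 sets, 13 animals) was sequenced after poly(A) selection. The authors aligned the reads with HISAT2 2.1.0 to mm39 and deposited raw counts per Ensembl gene from featureCounts, in which reads that map to several places were counted, so that near-identical copies share reads. Strand and fraction settings are not given in the sources used here. Identifiers outside the GRCm39 annotation used for names held 0.0241% of the counts. Library totals were 23626664 to 37801299 for WT VSMC, 23238979 to 35120866 for KO VSMC and 17166133 to 43240489 for EC. In the stressor and genotype fits, p-values measure the spread that remains once the level of each set is taken out. In the unstressed comparisons they measure the spread between sets.

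Counts as deposited were tested with edgeR 4.0.16 (R 4.3.3, limma 3.58.1), with TMM scaling, the filterByExpr filter and quasi-likelihood tests of a model with condition and set, for each cell type over all genes. Genotype differences came from 1 model of both VSMC types, and the unstressed comparisons from the Control libraries, without a block. FDR is the Benjamini-Hochberg adjusted p. The set, given in the labels, marks cells of 1 animal split over the conditions. Same-set libraries deviated together, with a mean r of 0.816, 0.798 and 0.855 for WT VSMC, KO VSMC and EC over protein-coding genes of at least 3 FPM. Between sets it was -0.275, -0.283 and -0.0938. Deviations from a common mean give a negative r between sets, so this contrast is not a test of the pairing. Ratios per set used a pseudocount of 0.1 FPM. Genes were named where they passed the FDR, had the smallest p of a comparison, or were isoforms or extremes of their complex. The level of 1 gene that this rule names is not reported here. The genes and all lists were chosen with earlier results of these data known. The fit was tested on simulated data. Alternatives were DESeq2 1.42.0, its size factors, no count filter, other blocks, the study's DEG rule and libraries left out. Leaving out EC sets, alone or sets 9, 11 and 13 together, was chosen after seeing the data. Python 3.11.15, pandas 2.3.3 and matplotlib 3.10.9 were used for summaries and figures.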

Additional observations from a re-analysis of the deposited data

Results flagged for a closer look

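In 6 of 88 groups of 4 to 10 libraries that were tested, 1 library lay far from the others, and chance gives about 1 in 20. Ndufa11 was at 163 FPM in WT VSMC set 3 under ALL, with the next at 107 FPM. Ndufa4l2 was at 148 FPM in KO VSMC set 5 under AII + NA, with the next at 22.2 FPM, and this set also held 36.3 FPM of Egfr. Cox6b2 was at 33.5 FPM in EC set 15 under Control, with the next at 17.5 FPM, and at 36.0 FPM in the same set under ALL, with the next at 18.8 FPM. Cox5a was at 42.6 FPM in EC set 11 under HG + FFA, with the next at 30.7 FPM, and Cox4i2 was at 3.70 FPM in EC set 13 under ALL, with the next at 1.48 FPM. Sets 11 and 13 are among the EC sets with little Pecam1. Cyc1 was higher under AII + NA in every WT VSMC set (0.15 on the log2 scale) and lower in every EC set with both libraries (-0.242). The difference between the cell types was not tested.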

How the results depend on the processing

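Of the counts of members under an alternative, 235 stayed within 1.5 times the main count and 42 did not. Of 536 values of genes in the text under an alternative, 1 changed sign (Cycs, average effect of HG + FFA in WT VSMC: -0.000789 to 0.0845 with 1 set left out, lowest without set 3) and was not called. Of 2312 values of other gene and comparison pairs that the text does not give, 161 changed sign, none of them called in either fit, and 22 of 290 medians over the members did, among them that of HG + FFA averaged over AII + NA in KO VSMC (-0.07 without set 5). With no filter on low counts, 5 members fell under AII + NA and 4 under HG + FFA in KO VSMC, 1 rose under ALL and 1 fell under HG + FFA in EC, 5 were called under ALL in WT VSMC, 4 rose in the average effect of AII + NA in WT VSMC, 6 were above 0 in the genotype difference of AII + NA, 1 in that of ALL, and 9 were called between unstressed EC and WT VSMC. DESeq2 called 1 member under ALL in EC, 2 in the average effect of AII + NA and 3 in that of HG + FFA in WT VSMC, and its size factors in edgeR gave 1 and 2 for these averages. The DEG rule of the study called 0 under ALL in WT VSMC and 0 in the average effect of HG + FFA in WT VSMC and EC. With no replicate block for the set, 0 were called in the same 3 comparisons, and with the animal as the block 0 in the average effect of HG + FFA in EC. Without EC sets 9, 11 and 13 the latter count was 1, and 38 were called between unstressed EC and WT VSMC. The cause was not tested.

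Leaving out 1 set at a time gave 0 to 5 members called under ALL in WT VSMC (5 without set 1, 0 without set 3 or 4), 0 to 1 under ALL (1 without set 11 or 16) and 0 to 1 under HG + FFA in EC (1 without set 16), and 0 to 25 under HG + FFA in KO VSMC (25 without set 5). The average effect of AII + NA in WT VSMC gave 0 to 21 (21 without set 1), that of HG + FFA 0 to 1 in WT VSMC (0 without set 3 or 4) and 1 to 4 in EC (4 without set 13 or 17, 1 without set 9, 11 or 18). Between unstressed EC and WT VSMC the range was 1 to 18, with 3, 4, 1 and 6 without WT VSMC sets 1 to 4 and 18 without KO VSMC set 5, which enters the same fit. Of the EC sets, 18 was the only one left out alone in that comparison. In the other comparisons each of these fits called 0 members. The low number of VSMC sets limits the detection of small effects, and depth was not varied.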
